A study of Mus musculus with 15 samples.

Results

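Follicular T cells are T cells that enter the B cell follicles of lymphoid organs, and 8 genes known for this program, Bcl6, Cxcr5, Tox, Tox2, Cd200, Ascl2, Sh2d1a and Slamf6, were followed here in regulatory T cells (Tregs). They were taken by symbol from the 45706 gene rows of a raw-count table, and 7 of the 8 were among the 18423 genes with enough counts to be tested. The Tregs, which carry the transcription factor Foxp3, had been sorted from adult C57BL/6 mice whose Foxp3 reporter marks these cells, and their RNA was sequenced in bulk. Donor mice were RelB-dDC animals, called dDC below, or their control littermates from the same reporter cross. No label explains that name, which was taken to mean that dendritic cells lack the NF-kappaB protein RelB, and no promoter driving such a deletion is given. Spleen gave 3 control and 3 dDC libraries, thymus 3 control and 2 dDC, and the peritoneal cavity 2 control and 2 dDC, 15 libraries in all. No treatment and no immunization is named for any group. The labels do not say whether the libraries of a group came from separate animals, so the p-values measure the spread between these libraries, which may be technical.

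A follicular T cell is made when the repressor Bcl6 takes hold and the cell gains CXCR5, the receptor for the follicle's chemokine CXCL13. Follicular helper T cells then support B cells in the germinal centre, while follicular regulatory T cells, which arise mostly from Foxp3 positive Tregs, restrain that reaction. The 8 genes are shared by both kinds of cell and none is specific to regulatory cells. Ascl2, Tox and Tox2 are transcription factor genes that act beside Bcl6. Sh2d1a encodes SAP, the adaptor that carries signals from receptors of the SLAM family such as Slamf6 (Ly108) and lets T cells stay in contact with B cells, and Cd200 encodes a surface protein whose receptor restrains myeloid cells.

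The libraries held 15714286 to 24332044 counts each. Levels are given in CPM, read counts scaled to a common library total with TMM factors from edgeR, and as mean ± SD over the libraries of a group (n as above). The labelled cell type was checked on 8 genes of Treg and CD4 T cell identity, Foxp3 among them, and none of the 8 was at 0 in any library. Their summed level was 7829 to 9160 CPM in the 11 spleen and thymus libraries, 5774 to 6398 in the 2 peritoneal controls and 6796 to 7735 in the 2 peritoneal dDC libraries. Markers of B cells, which also express CXCR5, were present as well. The summed level of 12 B cell markers was 2750 to 4039 CPM in spleen, 1153 to 1680 in thymus and 3554 to 5924 in the peritoneal cavity. Ms4a1, which encodes the B cell surface protein CD20, stood at 62.15 to 167 CPM in spleen controls, 35.96 to 79.2 in spleen dDC and 153.7 to 438.3 in the peritoneal cavity, but at 0 to 4.022 in thymus. The sum over 10 macrophage and dendritic cell markers was 1581 CPM in peritoneal control 2, 77.4 in peritoneal control 1 and 164.3 to 268.2 in the peritoneal dDC libraries. In bulk RNA, fewer cells of a type and less RNA per cell cannot be told apart.

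In the deposited annotation (mm10), Bcl6 (ENSMUSG00000022508) lies on chromosome 16 from 23965052 to 23988852 on the minus strand, and Cd200 (ENSMUSG00000022661) on the same chromosome and strand from 45382135 to 45409053. Cxcr5 (ENSMUSG00000047880) lies on chromosome 9 from 44511788 to 44556391, and Tox (ENSMUSG00000041272) on chromosome 4 from 6686353 to 6991557, both on the minus strand. Tox2 (ENSMUSG00000074607) lies on the plus strand of chromosome 2 from 163203125 to 163324170, and Ascl2 (ENSMUSG00000009248) on the minus strand of chromosome 7 from 142966822 to 142969264. Sh2d1a (ENSMUSG00000005696) lies on chromosome X from 42502453 to 42529330, and Slamf6 (ENSMUSG00000015314) on chromosome 1 from 171917515 to 171953170, both on the plus strand. Exons of Bcl6, Tox and Sh2d1a overlap exons of a gene on the other strand, and the library chemistry does not mark the strand. Those 3 neighbours held at most 70, 36 and 37 reads in a library, beside at least 71, 2237 and 1860 reads for the members.

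The sequence before the transcript start was available in RefSeq (GRCm38.p6) for 5 of the 8 genes, Bcl6, Tox2, Cd200, Ascl2 and Slamf6. It is printed for Bcl6 and Cd200, whose RNA was lower in the peritoneal cavity than in spleen in every library, and for Slamf6, whose RNA was not. Each stretch is the 250 bases that end at the base before the start, in the direction of the gene and upstream of its first exon, and capitals mark E-boxes, the motif CANNTG that the Ascl2 protein and other basic helix-loop-helix factors recognize, searched on both strands. The positions are chr16:23988853-23989102 for Bcl6 and chr16:45409054-45409303 for Cd200, both minus strand, and chr1:171917212-171917461 for Slamf6, plus strand.
Bcl6: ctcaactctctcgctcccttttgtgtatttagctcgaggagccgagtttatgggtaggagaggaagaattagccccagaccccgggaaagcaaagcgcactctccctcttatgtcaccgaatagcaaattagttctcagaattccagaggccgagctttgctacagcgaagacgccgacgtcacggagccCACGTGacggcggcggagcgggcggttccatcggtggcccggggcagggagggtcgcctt
Cd200: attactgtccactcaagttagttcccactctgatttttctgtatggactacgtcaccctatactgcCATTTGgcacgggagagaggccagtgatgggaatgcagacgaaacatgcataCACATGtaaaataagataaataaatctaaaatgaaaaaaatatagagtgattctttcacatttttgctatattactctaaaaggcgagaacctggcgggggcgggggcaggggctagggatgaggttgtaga
Slamf6: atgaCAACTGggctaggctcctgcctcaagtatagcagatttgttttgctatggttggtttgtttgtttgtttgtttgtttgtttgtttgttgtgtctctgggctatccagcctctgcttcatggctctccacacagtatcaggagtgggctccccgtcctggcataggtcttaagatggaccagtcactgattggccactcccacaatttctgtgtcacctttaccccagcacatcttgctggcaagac
The stretch of Bcl6 held 1 E-box, that of Cd200 2 and that of Slamf6 1, and 66.2 percent of the 32851 mouse promoter stretches of this length held at least 1. The motif TTCNNNGAA of STAT factors was found once before Bcl6, where its letters overlap no E-box, and not in the other 2 stretches, and was held by 7.02 percent of all stretches. RefSeq gives a further start for Bcl6, inside the gene, and the 250 bases before it (chr16:23981284-23981533, minus strand, not printed) held 3 matches of TTCNNNGAA and 0 E-boxes. The stretch printed for Bcl6 is the one that ends at the gene's own start in the deposited annotation. These are matches of letters only.

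Compared per kilobase of exon in spleen controls, Cxcr5 was the most abundant of the 8 at 55.9 CPM per kb, with Tox at 49.6, Sh2d1a at 47.4, Cd200 at 36.1 and Slamf6 at 31.3. Bcl6 at 6.07 and Tox2 at 4.54 CPM per kb were much lower, and Ascl2 was at 0.435. Bcl6 and Ascl2, which are known for starting the program, were thus among the 3 lowest. All values from here on are CPM that are not divided by length, so they compare libraries and not genes.

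**Figure D1:**
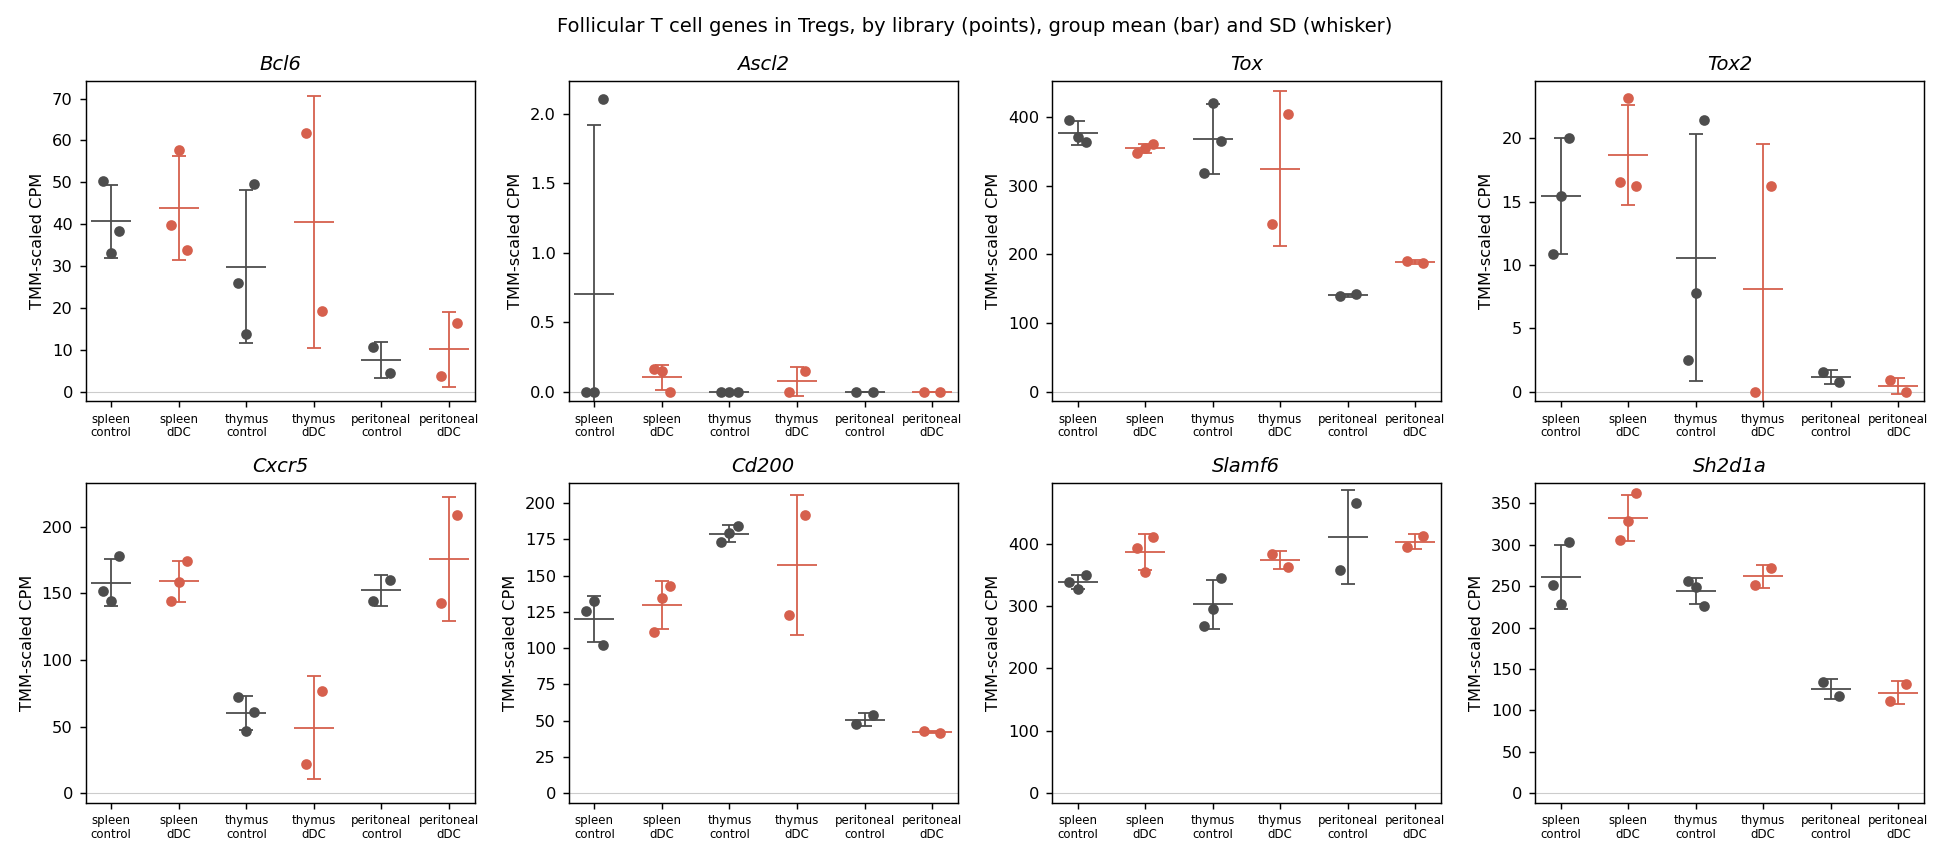
Level of each of the 8 genes in TMM-scaled CPM (vertical axis, linear, each panel with its own scale) in the 15 Treg libraries, grouped by tissue and genotype on the horizontal axis; points are libraries, the bar is the group mean and the whisker the SD. Tox, Cd200, Sh2d1a, Bcl6 and Tox2 have their lowest group means in the peritoneal cavity and Cxcr5 in thymus, and Slamf6 lies between 267 and 464 CPM in all libraries.

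Bcl6, the repressor that directs the follicular program, was found at 50.4, 33.2 and 38.4 CPM in the spleen control libraries and at 39.8, 57.8 and 33.9 in spleen dDC. In thymus it was at 25.9, 13.8 and 49.7 in controls and 61.9 and 19.2 in dDC, and in the peritoneal cavity at 10.6 and 4.50 in controls and 3.81 and 16.5 in dDC. The 4 peritoneal libraries were all below the 6 spleen libraries, whereas the thymus libraries spread over nearly the whole range of the other tissues. In controls the fitted level was 5.36-fold lower in the peritoneal cavity than in spleen (log2 -2.42, SE 0.76), and this did not pass the threshold (edgeR adjusted p = 0.24). Averaged over both genotypes, a comparison added after the data were seen, the difference was -2.27 (SE 0.53, edgeR adjusted p = 0.0445) where 2.89 percent of all genes were called. The averaged difference from thymus was -1.99 (SE 0.54, edgeR adjusted p = 0.0558) and did not pass. The group ranges of controls and dDC overlapped in all 3 tissues.

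Ascl2, the helix-loop-helix factor that switches on Cxcr5 in follicular helper cells, was almost absent. It had 50 reads in spleen control library 3 (2.10 CPM), 3 reads in each of 3 dDC libraries, spleen 1 and 2 and thymus 2, and no read in the other 11 libraries. A library with no read allows up to 3 counts, which is 0.126 to 0.190 CPM across the 15 libraries, as a limit of counting error only. One library therefore carried nearly all reads of this gene, and it was too low to be tested.

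Tox, whose product reshapes chromatin and favours the follicular fate, was at 397, 371 and 365 CPM in spleen controls and 348, 355 and 362 in spleen dDC. In thymus it was at 319, 421 and 366 in controls and 245 and 405 in dDC. In the peritoneal cavity it was at 139 and 142 in controls and 191 and 187 in dDC. All 4 peritoneal libraries were below all 11 others, and the 2 peritoneal dDC libraries were above the 2 peritoneal controls. In controls Tox fell 2.69-fold from spleen to the peritoneal cavity (log2 -1.43, SE 0.18, edgeR adjusted p = 0.00454) and was 2.63-fold lower there than in thymus (log2 -1.39, SE 0.18, edgeR adjusted p = 0.0018). In dDC mice the fall from spleen was 1.88-fold (log2 -0.91, SE 0.18, edgeR adjusted p = 0.0393), and the difference from thymus was -0.78 (SE 0.19, edgeR adjusted p = 0.0813), which did not pass.

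Tox2, a relative of Tox that opens chromatin at follicular genes, was weak and uneven. It was at 10.8, 15.5 and 20.03 CPM in spleen controls and 16.6, 23.2 and 16.3 in spleen dDC, and at 1.57 and 0.760 in peritoneal controls and 0.875 and 0 in peritoneal dDC. The 6 spleen libraries were all above the 4 peritoneal ones. Thymus spanned both, with 2.52, 7.80 and 21.4 CPM in controls and 0 and 16.2 in dDC. In controls the fitted difference of the peritoneal cavity from spleen was -3.72 on the log2 scale with an SE of 1.83 and an edgeR adjusted p of 0.502, so this spread did not allow a call. Averaged over both genotypes, the added comparison, this difference was -4.55 (SE 1.36, edgeR adjusted p = 0.124) and did not pass either.

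Cxcr5, the receptor that leads cells into the follicle, was at 152, 144 and 178 CPM in spleen controls and 144, 158 and 175 in spleen dDC. In the peritoneal cavity it was at 144 and 160.1 in controls and 143 and 209 in dDC. In thymus it was at 72.3, 46.9 and 60.7 in controls and 22.1 and 76.4 in dDC. Every thymus library was below every spleen and peritoneal library, and spleen and peritoneal ranges overlapped. In controls the level in thymus was 2.63-fold below that in spleen (log2 -1.40, SE 0.35, edgeR adjusted p = 0.13), and in dDC mice 3.23-fold (log2 -1.69, SE 0.41, edgeR adjusted p = 0.195). Neither passed the threshold. The difference in controls passed without thymus dDC 1 or thymus dDC 2 (smallest edgeR adjusted p = 0.00725), and that in dDC mice without thymus dDC 2 (-2.84, edgeR adjusted p = 0.00941), a fit that leaves 1 thymus dDC library, which is assumed to vary like the other groups. The peritoneal cavity was above thymus by 1.34 in controls (SE 0.38, edgeR adjusted p = 0.0978), which did not pass. In dDC mice this difference was 1.83 (SE 0.43, edgeR adjusted p = 0.0674), which did not pass either. Averaged over both genotypes, the added comparison, Cxcr5 fell 2.91-fold from spleen to thymus (log2 -1.54, SE 0.27, edgeR adjusted p = 0.0149). In that average Cxcr5 was higher in the peritoneal cavity than in thymus (log2 1.59, SE 0.29, edgeR adjusted p = 0.00682). In these 2 averaged comparisons 1.32 and 5.61 percent of all genes were called.

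B cell markers moved with Cxcr5. Ighm made up most of the 12-marker sum in every library, so a sum without it was formed after the values were seen. The 11 B cell markers other than Ighm added up to 497.8 to 1371 CPM in spleen controls and 532.7 to 951.4 in spleen dDC. They added up to 43.4 to 98.0 CPM in thymus controls and 69.8 to 133.0 in thymus dDC, and to 1276 to 2404 in peritoneal controls and 1524 to 2597 in peritoneal dDC. Pearson's r between log2 Cxcr5 and the log2 sum of all 12 B cell markers, which was mostly Ighm, was 0.841 over the 15 libraries. It was 0.285 after each group's mean had been taken out. For Slamf6 these values were 0.691 and 0.515, the latter the highest of the 7 tested genes, and for Cd200 they were -0.73 and 0.109, so the sign for Cd200 turned within groups. All points share the libraries and their tissues, so these are descriptions. Cxcr5 and the B cell markers did not keep to 1 ratio, since the sum without Ighm was higher in the peritoneal cavity than in nearly all spleen libraries while Cxcr5 was not. The part of B cell RNA in the levels of Cxcr5 and Slamf6 was not tested.

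**Figure D2:**
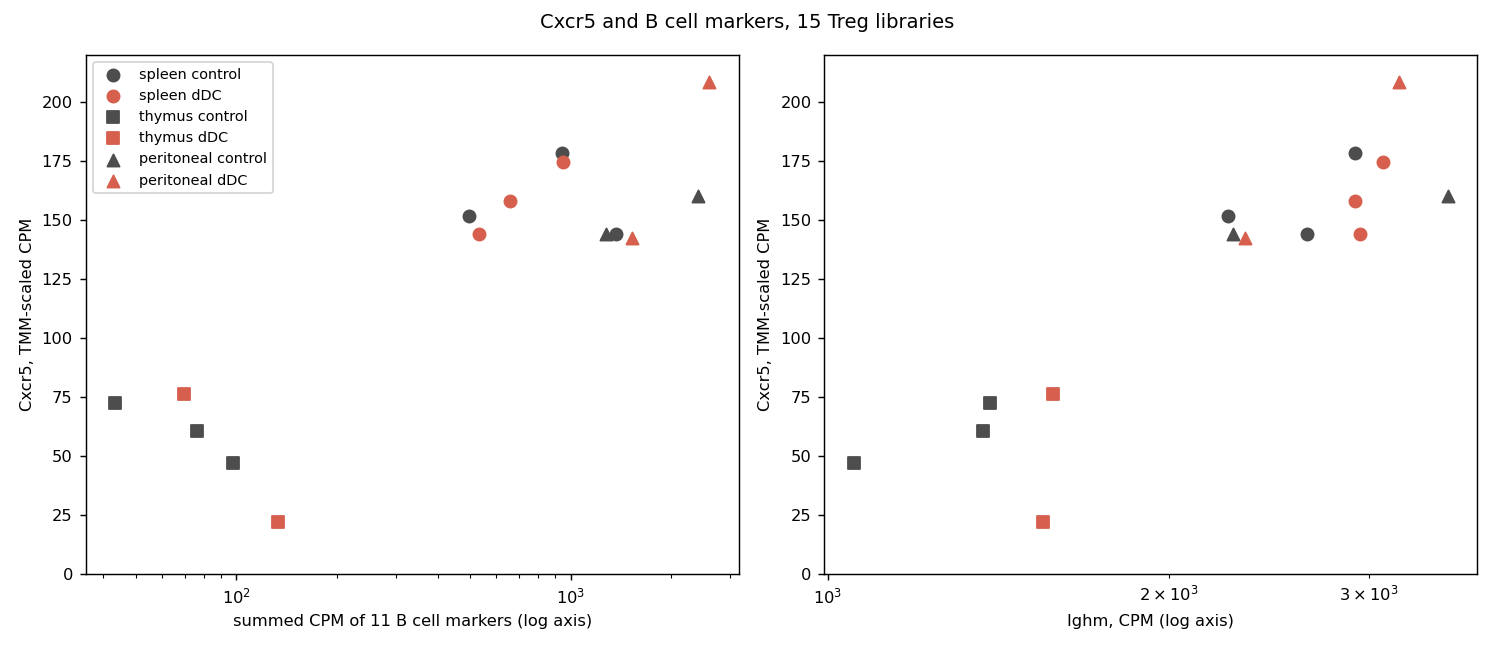
Cxcr5 level (vertical axis, TMM-scaled CPM) against B cell markers (horizontal axis, CPM, log scale) in the 15 libraries. The left panel has the summed level of 11 B cell markers without Ighm, and the right panel has Ighm alone. The shape of a point marks the tissue and its colour the genotype. The 5 thymus libraries are low on both axes in both panels. Spleen and peritoneal libraries share a Cxcr5 range. Most peritoneal ones lie further right in the left panel, and in the right panel the ranges of these tissues overlap.

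Cd200, the surface protein that many follicular T cells carry, was highest in thymus. It was at 173, 179 and 185 CPM in thymus controls and 123 and 192 in thymus dDC, at 126, 132 and 102 in spleen controls and at 111, 135 and 143 in spleen dDC. In the peritoneal cavity it was at 47.5 and 54.1 in controls and 42.9 and 41.8 in dDC, below every library of the other tissues. In controls Cd200 fell 2.36-fold from spleen to the peritoneal cavity (log2 -1.24, SE 0.20, edgeR adjusted p = 0.0158) and was 3.52-fold lower there than in thymus (log2 -1.82, SE 0.20, edgeR adjusted p = 0.000641). In dDC mice it fell 3.06-fold (log2 -1.61, SE 0.20, edgeR adjusted p = 0.00305) and was 3.71-fold lower than in thymus (log2 -1.89, SE 0.21, edgeR adjusted p = 0.00101). The 3 thymus controls were all above the 3 spleen controls, but this difference of 0.58 (SE 0.17) did not pass (edgeR adjusted p = 0.233).

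Slamf6, a SLAM receptor that binds itself on neighbouring lymphocytes, had group means from 302.7 to 411.0 CPM. It was at 339, 328 and 350.0 CPM in spleen controls and 393, 355 and 411 in spleen dDC, and at 267, 295 and 346 in thymus controls and 384 and 363 in thymus dDC. In the peritoneal cavity it was at 358 and 464 in controls and 395 and 412 in dDC. The peritoneal controls were above the spleen controls, by 0.28 on the log2 scale (SE 0.13, 95 percent interval -0.01 to 0.57, edgeR adjusted p = 0.486), and above the thymus controls by 0.44 (SE 0.13, edgeR adjusted p = 0.123). Neither difference passed; the second did without peritoneal control 1 (0.62, edgeR adjusted p = 0.0448), where the peritoneal arm is the 1 library with 1581 CPM of macrophage and dendritic cell markers and its spread is taken from the other groups.

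Sh2d1a, the gene of the adaptor SAP, was at 252, 228 and 304 CPM in spleen controls and 306, 329 and 362 in spleen dDC. In thymus it was at 256, 249 and 226 in controls and 252 and 272 in dDC, and in the peritoneal cavity at 134 and 118 in controls and 111 and 132 in dDC. The 4 peritoneal libraries were all below the 11 others, with no overlap. In controls Sh2d1a fell 2.07-fold from spleen to the peritoneal cavity (log2 -1.05, SE 0.15, edgeR adjusted p = 0.0066) and was 1.93-fold lower there than in thymus (log2 -0.95, SE 0.14, edgeR adjusted p = 0.00452). In dDC mice it fell 2.73-fold (log2 -1.45, SE 0.15, edgeR adjusted p = 0.000698) and was 2.15-fold lower than in thymus (log2 -1.11, SE 0.16, edgeR adjusted p = 0.00412). The adaptor and its receptor thus had different patterns over the tissues: Sh2d1a was lowest in the peritoneal cavity, and the Slamf6 level there was not below that of the other tissues.

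Across tissues of the controls, 3 of the 7 tested genes, Tox, Cd200 and Sh2d1a, were lower in the peritoneal cavity than in spleen and none was higher, where 0.499 percent of all tested genes were called lower and 0.792 percent in either direction. The median log2 difference of the 7 was -1.24, beside -0.03 over all tested genes. Ranges of the 2 groups were separate for 6 of the 7, all but Cxcr5, where 25 percent of tested genes had separate ranges. The same 3 genes were lower than in thymus (1.13 percent of genes called lower, 2.47 percent in either direction), and the ranges of all 7 were separate (28.4 percent of genes). In dDC mice Tox, Cd200 and Sh2d1a were again lower than in spleen (0.423 percent of genes called lower, 0.906 percent in either direction). Cd200 and Sh2d1a were lower than in thymus (0.586 and 1.35 percent); ranges were separate for 5 and for 6 of the 7 (28.4 and 38.9 percent of genes). The 2 comparisons of a genotype share the peritoneal libraries, so they are not independent of each other. Library numbers also ran in order of tissue, so any effect of that order cannot be told apart from tissue. Between thymus and spleen none of the 7 was called with edgeR, in controls (0.603 percent of genes called) or in dDC mice (0.179 percent). At an unadjusted p under 0.05 there were 2 of 7 in each, where 9.79 and 7.75 percent of all genes were. DESeq2 called 2 in controls, Cd200 and Cxcr5, and 1 in dDC mice, Cxcr5 (3.19 and 2.3 percent of genes), and limma called 0 in both. Ranges were separate for 2 and for 3 of the 7 (14.8 and 22.7 percent of genes).

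**Figure D3:**
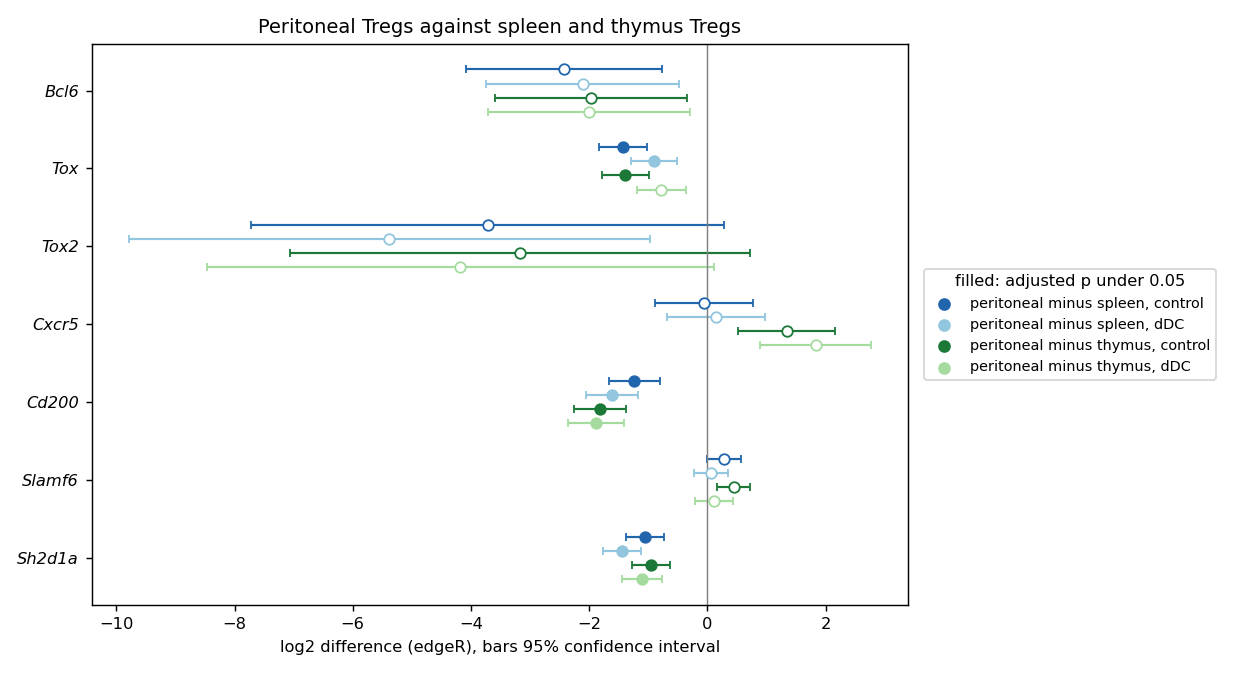
Fitted log2 difference between tissues (horizontal axis; edgeR, bars are 95 percent confidence intervals) for the 7 tested genes (vertical axis), in controls and in dDC mice; filled points passed an adjusted p of 0.05. Tox, Cd200 and Sh2d1a lie left of 0 in the comparisons of the peritoneal cavity with spleen and with thymus. The points of Slamf6 lie right of 0, but its intervals span 0 except against thymus in controls, and none passed. The intervals of Cxcr5 lie right of 0 against thymus and span 0 against spleen.

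The calls against spleen in controls rested on few libraries. Leaving out 1 of the 2 peritoneal libraries of a genotype leaves 1, which is then assumed to vary like the other groups. Without peritoneal control 2, none of the 3 passed (adjusted p of 0.0654 for Tox, 0.102 for Cd200 and 0.102 for Sh2d1a), although the differences were then -1.44, -1.33 and -0.96. The call of Cd200 was also lost without peritoneal control 1 (log2 -1.15), spleen control 1 (-1.20) or spleen control 2 (-1.16), and none of the 3 passed when only the 2 groups compared were fitted (adjusted p of 0.123 to 0.232). Against thymus, Sh2d1a lost its call without peritoneal control 2 (adjusted p = 0.0748), and Tox and Cd200 passed in each of the 15 fits that left out 1 library. In dDC mice the Tox call against spleen was kept only without thymus control 1, thymus control 2, thymus dDC 1 or thymus dDC 2, and lost in the other 11 fits, with differences between -0.93 and -0.89 in all 15 and adjusted p up to 0.334. The Cd200 call was lost without peritoneal dDC 2 (adjusted p = 0.0571). Sh2d1a against thymus lost its call without peritoneal dDC 1 (adjusted p = 0.0518).

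The T cell genes Cd3e, Cd3g and Trac together were lower in peritoneal controls (3644 to 3953 CPM) than in spleen controls (5269 to 6265) and thymus controls (4719 to 5038), and stood at 4486 to 4698 in peritoneal dDC and 5932 to 6256 in spleen dDC. With the libraries scaled to these 3 genes, an alternative added after the data were seen, the median of all genes moved from -0.03 to 0.55 for the peritoneal cavity against spleen in controls, and the calls from 54 higher and 92 lower to 1350 higher and 79 lower. Tox (-0.83, adjusted p = 0.0158) and Sh2d1a (-0.45, adjusted p = 0.0488) were still lower on that scale, Cd200 was at -0.65 (adjusted p = 0.0747), and Slamf6 was called higher (0.88, adjusted p = 0.00928). Against thymus the same scaling called Tox (-1.04), Cd200 (-1.46) and Sh2d1a (-0.60) lower and Cxcr5 (1.71) and Slamf6 (0.80) higher (edgeR adjusted p = 0.00557, 0.00239, 0.0174, 0.0155 and 0.0171), with 770 higher and 144 lower calls over all genes in place of 246 and 209. In dDC mice against spleen, Cd200 (-1.21, adjusted p = 0.00933) and Sh2d1a (-1.05, adjusted p = 0.00126) passed on that scale and Tox did not (-0.51, adjusted p = 0.16), with 507 higher and 55 lower calls in place of 89 and 78. In dDC mice against thymus, Cd200 (-1.72, adjusted p = 0.00241), Sh2d1a (-0.95, adjusted p = 0.00414) and Cxcr5 (2.05, adjusted p = 0.0237) passed, with 248 higher and 88 lower calls in place of 141 and 108.

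The order of the 6 groups differed between the genes. Tox ran from spleen controls (377 ± 17 CPM) over thymus controls (369 ± 51.5), spleen dDC (355 ± 6.99) and thymus dDC (325 ± 113) to peritoneal dDC (189 ± 2.40) and peritoneal controls (140.4 ± 1.83). Its first 4 groups overlapped each with the next, and the last 2 steps had separate ranges but did not pass the test. Sh2d1a was highest in spleen dDC (332 ± 28.2), then at 262 ± 14.2 in thymus dDC, 261 ± 38.5 in spleen controls and 244 ± 15.7 in thymus controls, with peritoneal controls (126 ± 11.6) and peritoneal dDC (122 ± 14.3) last. Only its step from thymus controls to peritoneal controls passed the test among neighbours. Cd200 ran from thymus controls (179 ± 5.63) over thymus dDC (157 ± 48.5), spleen dDC (129.6 ± 16.6) and spleen controls (120.0 ± 15.9) to peritoneal controls (50.8 ± 4.67) and peritoneal dDC (42.4 ± 0.786), and its step from spleen controls to peritoneal controls passed.

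Cxcr5 was highest in peritoneal dDC (176 ± 46.7 CPM), then at 159 ± 15.2 in spleen dDC, 158 ± 17.9 in spleen controls and 152 ± 11.3 in peritoneal controls, and lowest in thymus controls (59.99 ± 12.7) and thymus dDC (49.3 ± 38.4). Slamf6 ran from peritoneal controls (411 ± 75.5) and peritoneal dDC (403 ± 12) over spleen dDC (386 ± 28.6), thymus dDC (374 ± 14.7) and spleen controls (339 ± 11) to thymus controls (303 ± 39.7). No step between neighbours passed for either gene. Bcl6 ran from spleen dDC (43.8 ± 12.5), spleen controls (40.7 ± 8.81) and thymus dDC (40.6 ± 30.2) over thymus controls (29.8 ± 18.3) to peritoneal dDC (10.2 ± 8.97) and peritoneal controls (7.56 ± 4.33), with overlap at each step. Tox2 ran from 18.7 ± 3.91 in spleen dDC and 15.4 ± 4.59 in spleen controls over 10.6 ± 9.76 and 8.10 ± 11.4 in thymus controls and dDC to 1.16 ± 0.569 and 0.438 ± 0.619 in peritoneal controls and dDC, also with overlap at each step.

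The comparison of dDC mice with controls asked whether these genes stood at another level in Tregs of the RelB-dDC animals. None of the 7 passed with edgeR in spleen (0 percent of all tested genes called), thymus (0 percent), the peritoneal cavity (0.00543 percent) or the average of the 3 tissues with equal weight (0.076 percent), and limma and DESeq2 called none of them either. At an unadjusted p under 0.05 there was 1 of 7 in each tissue and 0 in the average, where 4.27, 6.57, 6.36 and 9.31 percent of all genes were. Over all genes, those were 786 in spleen and 1211 in thymus, where DESeq2 called 32 and 153 (0.174 and 0.83 percent) and limma 0. Ranges of dDC and controls were separate for 3 of the 7 in spleen, 1 in thymus and 2 in the peritoneal cavity, where 10.1, 19.4 and 34.1 percent of all tested genes were separate. In spleen these were Sh2d1a (0.35, SE 0.13) and Slamf6 (0.19, SE 0.12), both with higher values in dDC, and Tox (-0.09, SE 0.16), with edgeR adjusted p of 1 for each. In thymus it was Slamf6 (0.30, SE 0.13, edgeR adjusted p = 0.748), and in the peritoneal cavity Tox (0.43, SE 0.19, edgeR adjusted p = 0.776) and Cd200 (-0.26, SE 0.21, edgeR adjusted p = 0.879).

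Counted by library, Sh2d1a and Slamf6 exceeded the mean of the matching controls in 6 of 7 dDC libraries each, Cxcr5 and Tox2 in 4, Bcl6, Tox and Cd200 in 3 and Ascl2 in 1. Tox was below it in 3 of 3 spleen dDC libraries and above it in 2 of 2 peritoneal ones. The difference between these 2 tissues in the effect of the genotype was 0.52 for Tox (SE 0.25, edgeR adjusted p = 0.998) and -0.40 for Sh2d1a (SE 0.20, edgeR adjusted p = 0.998), so neither effect was shown to depend on the tissue. Over the 3 such differences between tissues, no gene of the table was called with edgeR (0 percent) or limma, while DESeq2 called 36, 55 and 112 and 932, 900 and 1053 had an unadjusted p under 0.05 in edgeR.

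For the average over tissues, the intervals bound what the data could show. The estimate was 0.13 for Sh2d1a (95 percent interval -0.04 to 0.31), 0.15 for Slamf6 (-0.01 to 0.32), 0.05 for Tox (-0.17 to 0.27) and -0.11 for Cd200 (-0.35 to 0.13), with edgeR adjusted p of 0.661, 0.574, 0.974 and 0.852. For these 4 genes a log2 change of more than 0.35 in either direction lies outside the interval. The intervals were wider for Cxcr5 (-0.02, from -0.50 to 0.46), Bcl6 (0.33, from -0.54 to 1.19) and Tox2 (-0.50, from -2.5 to 1.5), with edgeR adjusted p of 1, 0.905 and 0.969.

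**Figure D4:**
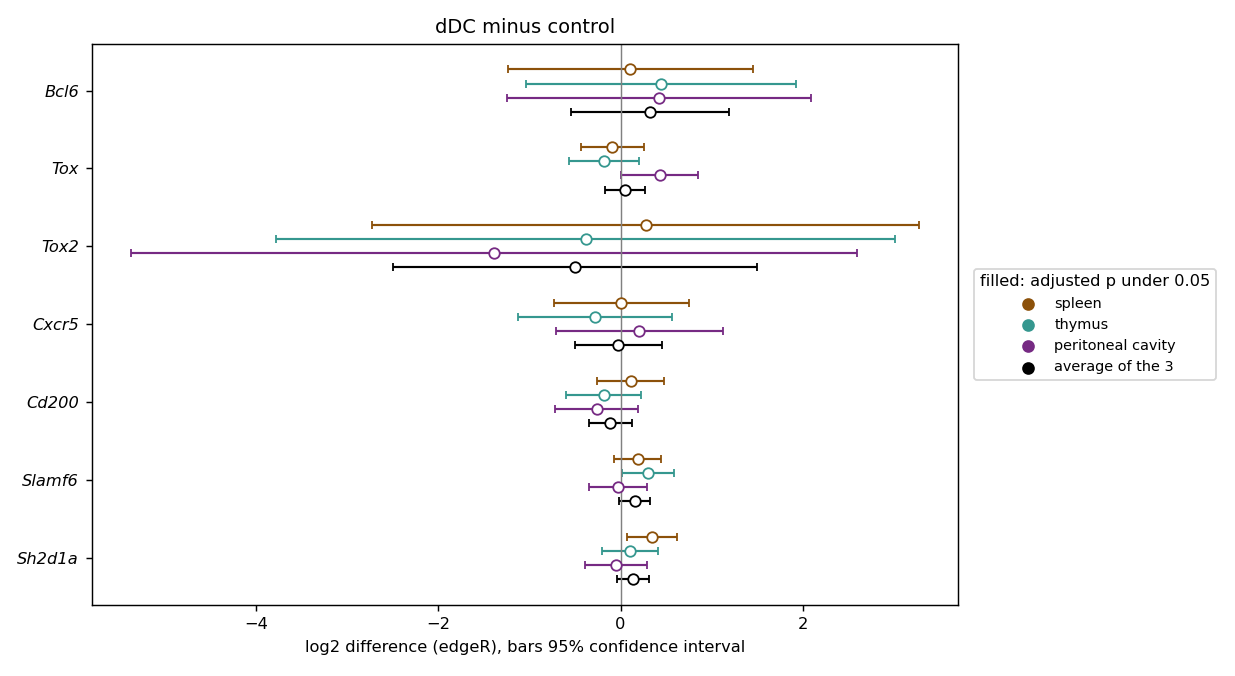
Fitted log2 difference of dDC from control libraries (horizontal axis; edgeR, bars are 95 percent confidence intervals) for the 7 tested genes (vertical axis) in spleen, thymus, the peritoneal cavity and their average. No point is filled, that is, none passed an adjusted p of 0.05, and the intervals are narrowest for Slamf6, Sh2d1a, Tox and Cd200 and widest for Tox2.

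Over the 15 libraries the members fell into those that varied together and those that did not. Pearson's r of log2 CPM was 0.884 between Tox and Cd200, 0.862 between Tox and Sh2d1a, 0.836 between Cd200 and Sh2d1a and 0.817 between Bcl6 and Sh2d1a. Slamf6 had negative values with each of these 4 genes, from -0.59 with Cd200 to -0.31 with Bcl6. After each group's mean had been taken out, Tox kept 0.731 with Cd200 and 0.806 with Tox2, whereas Tox and Sh2d1a were at 0.0889, Cd200 and Sh2d1a at -0.125 and Bcl6 and Sh2d1a at 0.12. Bcl6 turned from 0.679 to -0.532 with Tox and from 0.663 to -0.417 with Cd200, and Cxcr5 from -0.501 to 0.625 with Cd200. The values of Slamf6 with Bcl6, Tox and Cd200 went to between 0.0175 and 0.0366, and that with Sh2d1a to -0.211. All of these points share tissue, depth and library, and no test was made.

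Among 9159 candidate genes, those most like each member over the 15 libraries were named by the highest Pearson's r. They included Izumo1r, the folate receptor 4 gene of Tregs and follicular cells (0.946), and Cbx6 (0.94) for Sh2d1a. For Cd200 they were the interferon-induced genes Apol9b (0.966), Usp18 (0.962) and Gbp10 (0.959). For Tox they were Tnfrsf9, the activation receptor 4-1BB (0.947), Scin (0.932) and Rgs16 (0.918), and for Tox2 Tbc1d4 (0.947), Ibtk (0.894) and Fam160a1 (0.858). For Bcl6 they were Batf, a factor needed for follicular helper cells (0.876), Tap2 (0.87) and Bcl2a1b (0.868). Those of Cxcr5 included a B cell marker of the list above, Fcer2a (0.925), beside Cybb, a subunit of the phagocyte oxidase (0.95), and Slamf7 (0.931). Those of Slamf6 were Nptn (0.902), Mapre2 (0.899) and Naaa (0.86).

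The wider follicular program was read from lists of known genes, in the 4 comparisons of the peritoneal cavity with another tissue. The shares of all genes called lower or in either direction, given above for these comparisons, are the background of each count with TMM. For counts on the scale of the 3 T cell genes, the background is the calls over all 18423 tested genes there. Those were 1350 higher and 79 lower against spleen and 770 and 144 against thymus in controls. In dDC mice they were 507 and 55 against spleen and 248 and 88 against thymus. Counts on the scale of the 3 T cell genes are given beside those with TMM, and the median of all genes there was 0.547 against spleen and 0.305 against thymus in controls, and 0.378 and 0.176 in dDC mice. Of 13 transcription factors that favour the program, 2 were lower and 0 higher than in spleen in controls. They were Batf (-1.44, edgeR adjusted p = 0.0135, called in 13 of the 15 fits without 1 library) and Maf (-1.20, edgeR adjusted p = 0.0398, 3 of 15). The median of the 13 was -0.32, beside -0.03 over all genes. Against thymus, Batf (-1.24, edgeR adjusted p = 0.0133, 14 of 15) and Stat3 (-1.08, edgeR adjusted p = 0.0195, 11 of 15) were lower. The 1 gene called higher there was Pou2af1, a coactivator that B cells express, at 18.5 ± 2.70 CPM in peritoneal controls and 0 to 0.0545 in thymus controls. In dDC mice no gene of this list was called against spleen with edgeR (5 at an unadjusted p under 0.05, 1 with limma and 2 with DESeq2, beside 8.64 percent of all genes unadjusted and 3.17 percent with DESeq2), and Ets1 (0.81, edgeR adjusted p = 0.0358, 6 of 15) was called higher than in thymus. On the T cell scale, 2 genes of this list were higher (Ets1 and Tcf7) and 1 was lower (Batf) than in spleen in controls. The median of the 13 was 0.281, beside 0.547 over all genes. Against thymus in controls, 2 were higher on that scale (Ets1 and Pou2af1) and 0 lower. In dDC mice Ets1 alone was called there, as higher, against both tissues.

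Of 13 antagonists of the program, 1 was higher and 1 lower than in spleen in controls. Klf2, which keeps T cells in circulation and represses the follicular fate, was higher by 1.53 (edgeR adjusted p = 0.0281, 11 of 15 fits), and the interleukin-2 receptor gene Il2rb was lower (-1.05, edgeR adjusted p = 0.0131, 14 of 15). Against thymus, Klf2 was higher (1.38, edgeR adjusted p = 0.0223, 11 of 15) and 3 genes were lower, led by Il2rb (-1.12, edgeR adjusted p = 0.00311, 14 of 15) and Stat5a (-1.02, edgeR adjusted p = 0.013, 14 of 15). In dDC mice against spleen, Id2 (1.49, edgeR adjusted p = 0.0166, 13 of 15) and Il7r (1.14, edgeR adjusted p = 0.0318, 9 of 15) were higher and Id3 (-1.67, edgeR adjusted p = 0.0318, 7 of 15) was lower. In dDC mice against thymus only Il2ra was called, as lower (-0.98, edgeR adjusted p = 0.042, 5 of 15). The calls of this list depended on the scale, and the median of all genes moved with it. On the T cell scale 6 antagonists were called higher than in spleen in controls, Klf2, Id2, Il7r, Stat5a, Stat5b and Foxp1, and 0 lower. The list had a median of 0.767 in place of 0.177, while that of all genes was 0.547 in place of -0.03. Against thymus in controls 3 were higher there (Klf2, Il7r and Foxp1) and 2 lower (Il2rb and Stat5a). In dDC mice 3 were higher than in spleen (Klf2, Id2 and Il7r) and 0 lower, and none was called against thymus.

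Of 14 tested surface and helper molecules of follicular cells, 2 were lower than in spleen in controls and none was higher, where 0.499 percent of all genes were lower, and the median was -1.06 beside -0.03 over all genes. Izumo1r was lower (-1.79, edgeR adjusted p = 0.00235, called in 15 of 15 fits) and Il21r, the receptor for the follicular cytokine interleukin-21, was lower too (-1.34, edgeR adjusted p = 0.00538, 14 of 15). Against thymus 4 were lower, led by the costimulatory receptor gene Tnfrsf4 (-1.10, edgeR adjusted p = 0.00302, 15 of 15) and Izumo1r (-1.06, edgeR adjusted p = 0.0164, 13 of 15). In dDC mice against spleen, Izumo1r (-2.01, edgeR adjusted p = 0.000724, 15 of 15) and Il21r (-1.03, edgeR adjusted p = 0.0186, 10 of 15) were lower and Tnfrsf4 (1.04, edgeR adjusted p = 0.00776, 13 of 15) was higher. Against thymus in dDC mice, Izumo1r (-1.34, edgeR adjusted p = 0.00951, 13 of 15) and Il6st, the shared receptor chain of the interleukin-6 family (-0.82, edgeR adjusted p = 0.0327, 9 of 15), were lower. Izumo1r was thus lower in the peritoneal cavity in all 4 comparisons, which share libraries in pairs, and it was also called lower in all 4 on the T cell scale. On that scale Il21r was still lower than in spleen in both genotypes, but Tnfrsf4 was called higher than in spleen in controls (0.679, adjusted p = 0.0143), and Cd40lg was called higher than in thymus in controls.

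Of 7 positioning receptors, none was called against spleen in controls with edgeR (3 at an unadjusted p under 0.05, 0 with limma and 2 with DESeq2, beside 10.6 percent of all genes unadjusted and 4.21 percent with DESeq2). On the T cell scale 3 of them were called higher there, Gpr183 (1.14, adjusted p = 0.00802), S1pr1 (1.27, adjusted p = 0.00519) and Selplg (1.35, adjusted p = 0.00144), and none lower. Gpr183 (EBI2), which draws cells to the edge of the follicle, was higher than in thymus in controls (2.02, edgeR adjusted p = 0.000441, 15 of 15 fits). The same held in dDC mice (2.06, edgeR adjusted p = 0.00123, 15 of 15). Gpr183 was also lower in thymus than in spleen in controls (-1.50, edgeR adjusted p = 0.00528). The B cell marker sums were likewise lowest in thymus, and the part of B cell RNA in the Gpr183 level was not tested. In dDC mice against spleen, Gpr183 (1.21, edgeR adjusted p = 0.0231, 10 of 15) and S1pr1, the receptor for leaving lymphoid tissue (1.31, edgeR adjusted p = 0.0186, 11 of 15), were higher. Of 9 regulatory molecules of follicular Tregs, 2 were lower and 1 was higher than in spleen in controls. The decoy receptor gene Il1r2 was lower (-3.31, edgeR adjusted p = 0.0063, 15 of 15) and Entpd1, the gene of the ectoenzyme CD39, was lower too (-1.91, edgeR adjusted p = 0.0414, 3 of 15), while Tnfrsf18 (GITR) was higher by 0.76 (edgeR adjusted p = 0.0251, 12 of 15). Against thymus 3 were lower, led by Il1r2 (-4.42, edgeR adjusted p = 0.000495, 15 of 15) and Ctla4 (-0.85, edgeR adjusted p = 0.0227, 11 of 15). In dDC mice Il1r2 was lower than in spleen (-3.43, edgeR adjusted p = 0.00423, 13 of 15) and thymus (-4.30, edgeR adjusted p = 0.00101, 15 of 15), and Tnfrsf18 was higher than in spleen (1.32, edgeR adjusted p = 0.000677, 15 of 15). Of the 36 calls named with their log2 difference for these lists between the peritoneal cavity and another tissue, all kept their sign on the T cell scale. Of these, 28 kept their call and 8 lost it. The lost calls were Maf (adjusted p = 0.0973) and Il2rb (0.0575) against spleen in controls, Batf (0.0504), Stat3 (0.0752) and Ctla4 (0.193) against thymus in controls, Id3 (0.0552) against spleen in dDC mice, and Il2ra (0.133) and Il6st (0.141) against thymus in dDC mice.

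Of 12 tested relatives and partners of Tox and Slamf6, none was called with edgeR in controls between the peritoneal cavity and spleen (1 at an unadjusted p under 0.05, 0 with limma and 1 with DESeq2) or thymus (7, 0 and 4, where 14.1 percent of all genes were past the unadjusted level and 7.62 percent with DESeq2). On the T cell scale Cd48 and Cd84 were called higher in both comparisons, where 1350 and 770 of all genes were called higher. Against spleen they were at 0.756 and 0.75 on that scale, beside a median of 0.547 over all genes. With TMM these 2 differences were 0.15 and 0.151 (edgeR adjusted p = 0.751 and 0.835). In dDC mice 1 was called, Cd200r1, the receptor for Cd200, which was higher than in spleen (1.41, edgeR adjusted p = 0.0285, 10 of 15 fits). The other SLAM receptors were well expressed: Cd48 stood at 405 ± 32.9 CPM in spleen controls, Cd84 at 346 ± 23.9, Ly9 at 222 ± 79.7 and Slamf1 at 164 ± 28.4. Fyn, the kinase that SAP recruits, stood at 186 ± 12.9. Tox4 was at 141 ± 27.5 CPM, whereas Tox3 did not exceed 0.0575 in any library. In the average of dDC against control, none of the 68 entries tested over these 6 lists passed with edgeR (20 at an unadjusted p under 0.05, 0 with limma and 14 with DESeq2, which called 2.08 percent of all genes), and the smallest p of each list belonged to Cd200r1 (0.84, edgeR adjusted p = 0.0973), Icos (0.61, 0.129), Tnfrsf18 (0.36, 0.154), Cxcr4 (1.02, 0.156), Foxp1 (-0.52, 0.156) and Batf (0.48, 0.228). Within a tissue edgeR called none either. At an unadjusted p under 0.05 there were 4 entries in spleen, 8 in thymus and 21 in the peritoneal cavity. Of all genes, 4.27, 6.57 and 6.36 percent were past that level there, and 9.31 percent in the average. DESeq2 called 0 entries in spleen, 1 in thymus (Slamf8) and 9 in the peritoneal cavity, beside 0.174, 0.83 and 1.05 percent of all genes. In the peritoneal cavity limma called 1, Tnfrsf4. Markers of germinal centre B cells (7 genes) summed to 81.3 to 233.2 CPM, of immature thymocytes (8 genes) to 126.1 to 239.2 and of natural killer and innate lymphoid cells (5 genes) to 0.245 to 334.8, and their part in the differences between tissues was not tested.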

How the data were processed

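Reads were counted by the authors, who deposited 1 table of raw counts per gene for the 15 libraries. The submitters' processing notes name bcl2fastq 2.19.1, the aligner GSNAP, featureCounts 1.6.0 and the build mm10. How strand and multiply matching reads were treated is not given in the sources used here. Per the labels' protocols, cDNA was primed from poly-dT and amplified before and after shearing, with no molecular identifiers named, so reads are not independent molecules. The table also held 92 spike-in rows with at most 5 reads in a library, which were left out.

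Symbols were found for 45143 of 45706 gene rows. Genes were kept with filterByExpr on the 6 groups (18423 genes, 99.93 percent of the counts), and 1 quasi-likelihood model with robust moderation, TMM factors and a mean per group was fitted in edgeR 4.0.16 (R 4.3.3) to all libraries, with 9 residual degrees of freedom and a median biological coefficient of variation of 0.55. Tests were two-sided, with Benjamini-Hochberg adjustment over all tested genes and a threshold of 0.05. The model was also run on simulated counts in which only well expressed genes were changed, in 1 comparison and with the model's own spread. That run does not bear on weak, uneven genes such as Tox2. Likeness used log2 CPM with a prior count of 2 among genes with a mean of at least 5 CPM and a known symbol. All 8 members are named. Of the other lists, up to 2 genes past the threshold in each direction with the smallest p are named, or 1 where none passed. Some genes these rules name are not reported here. The members, the lists and the comparisons were chosen with earlier results of these data known.

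Alternatives were RLE scaling, no filter on low counts, DESeq2 1.42.0, limma 3.58.1 with voom, only the groups compared, a block of neighbouring library numbers, and each library left out in turn. Averaging over both genotypes and scaling to Cd3e, Cd3g and Trac were added after the data were seen.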

Additional observations from a re-analysis of the deposited data

How the results depend on the processing

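None of the printed differences that passed the threshold and were rerun under the alternatives, of a member or a listed gene, changed sign. The Gpr183 difference between thymus and spleen was not rerun under every alternative, and those averaged over both genotypes were not rerun. Members called moved as follows. Between peritoneal cavity and spleen in controls, 3 became 0 when only the groups compared were fitted, 2 with limma, which lost Cd200 (adjusted p = 0.0531), 4 with DESeq2, which added Bcl6 (adjusted p = 0.0113), and 0 to 3 with 1 library left out; 3 were called with scaling to Cd3e, Cd3g and Trac, with Slamf6 in place of Cd200. Between peritoneal cavity and thymus in controls, 3 became 6 with DESeq2, 1 with only the groups compared, 5 with scaling to Cd3e, Cd3g and Trac and 2 to 4 with 1 library left out. In dDC mice, 3 against spleen became 5 with DESeq2 and 1 to 3 with 1 library left out, and 2 against thymus became 4 with DESeq2, 0 with only the groups compared and 1 to 3 with 1 library left out. Between thymus and spleen, 0 in controls became 2 with DESeq2, 1 with no filter on low counts, 1 averaged over both genotypes and 0 to 1 with 1 library left out, and 0 in dDC mice became 1 with DESeq2, 1 with no filter and 0 to 1 with 1 library left out. The cause was not tested; fits of only the groups compared rest on fewer libraries.

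Values of uncalled differences crossed 0. For dDC against control averaged over tissues, leaving out 1 library gave -0.14 to 0.58 for Bcl6, -0.41 to 0.19 for Cxcr5 and -0.082 to 0.16 for Tox. Scaling to the 3 T cell genes gave -0.10 for Tox and -0.0038 for Sh2d1a, where the median of all genes was -0.161. For Cxcr5 between peritoneal cavity and spleen in controls, leaving out 1 library gave -0.13 to 0.047, averaging over both genotypes 0.044 and scaling to the T cell genes 0.55. The median of all genes with that scaling was 0.547.

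Counts of all genes called moved as well. With DESeq2 they were 32 in spleen, 153 in thymus, 194 in the peritoneal cavity and 384 in the average of dDC against control, 36, 55 and 112 for the differences between tissues, 588, 775 and 1403 between tissues in controls and 424, 584 and 992 in dDC mice (thymus against spleen, peritoneal cavity against spleen, peritoneal cavity against thymus). With no filter they were 3 in thymus, 12 in the peritoneal cavity, 39 in the average, 1 for the difference of thymus from spleen in the effect of the genotype and 60 between thymus and spleen in dDC mice. With only the groups compared they were 0 for the genotype in the peritoneal cavity, 55, 1 and 73 between tissues in controls and 16, 57 and 0 in dDC mice. With limma, 5 genes were called for the genotype in the peritoneal cavity. Averaging over both genotypes gave 243, 533 and 1034, and scaling to the T cell genes 1429 and 914 for the peritoneal cavity in controls and 562 against spleen in dDC mice. With 1 library left out, they ranged for the genotype from 0 to 52 in thymus, 0 to 146 in the peritoneal cavity and 5 to 110 in the average, and for its differences between tissues from 0 to 21, 0 to 71 and 0 to 72. Between tissues they ranged from 50 to 120, 38 to 326 and 175 to 657 in controls and from 4 to 81, 41 to 173 and 86 to 319 in dDC mice.

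The fit with a block of neighbouring library numbers called 0 genes for the genotype in the peritoneal cavity and 0 in the average, in place of 1 and 14, and called no member. The deviations of the paired libraries from their group means had correlations of -0.0054 to 0.102, so the numbers were not taken as a pairing. Depth was similar in all libraries, and the spread of weakly expressed genes limits Bcl6, Tox2 and Ascl2.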
